A study of Saccharomyces cerevisiae with 6 samples.

Results

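The autophagy genes of budding yeast, taken as every gene on the array whose symbol is ATG followed by digits, numbered 36 of the 5379 named genes, with 1 spot each. They were measured in Saccharomyces cerevisiae strain S288C, a laboratory strain, on 2-colour arrays that set a culture exposed to 5% methanol for 2 h (Cy5) against a culture grown for the same 2 h without it (Cy3). Both cultures were grown in rich glucose medium (YPD) at 25 °C, and methanol was added during exponential growth at an optical density of 1. The 3 arrays came from independent biological samples, numbered replicates 1 to 3, and each gave a high-power and a low-power laser scan, so 6 scans count as n = 3. The comparison asks which autophagy transcripts differed between methanol and untreated cultures.

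Each value is a log2 ratio, likely methanol over untreated, after averaging of the scans of an array and centring on its median gene. A value of 0 means that a gene stood where the median gene stood. The deposited numbers carry neither their log base nor their direction. Base 2 was assumed, and the direction was taken from the dyes, since Cy5 marked the methanol culture and is given as the first channel. Another base would change the fold values, and the opposite direction would turn every sign. The dyes were not swapped, so a dye effect of a single gene cannot be told apart from its response. Ratios hold no transcript levels, and in a bulk culture a change in some cells cannot be told apart from a smaller change in all. Over all genes the arrays correlated pairwise at Pearson's r of 0.817 to 0.855, as a description across genes, which are not independent replicates.

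Autophagy is the route by which cytoplasm is enclosed in a double membrane, the autophagosome, and carried to the vacuole, where it is broken down. The kinase complex around Atg1 starts it, a lipid kinase complex marks the membrane, vesicles carrying Atg9 supply lipid, and 2 conjugation systems attach the small protein Atg8 to the growing membrane. Receptors on mitochondria, peroxisomes, the endoplasmic reticulum, the nucleus and other cargo bind Atg8 and Atg11 and thereby select what is enclosed. Yeast also uses much of this machinery during growth in the Cvt pathway, which delivers a few enzymes to the vacuole. Starvation for nitrogen or carbon is the best known inducer, through the kinase complex TORC1.

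After methanol, the ATG genes that were called higher lay mostly among the cargo receptors and the vacuolar proteins that break down and export the contents, with ATG22, ATG36, ATG33 and ATG15 at least 2-fold up. All 13 genes of those groups were tested, but only 15 of the 23 others, and 26.0% of all genes tested were called higher. The groups were drawn up with earlier results of these data known, so where the calls lay is a description. Among the tested genes of the Atg1 kinase complex and of both conjugation systems, ATG8 alone passed the test. ATG4, ATG7, ATG11, ATG12, ATG16 and ATG17 of these systems lacked a value on at least 1 array and were not tested. ATG27, which helps to move Atg9, was the 1 member called lower. Of the 36 genes, 28 had a value on all 3 arrays and were tested, in a limma fit over all 4336 such genes, with 0.05 as the limit of the Benjamini-Hochberg adjusted p for a call.

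Of the 28 tested, 13 were called higher (46.4%), 1 lower and 14 not at all. Without replicate 1 the counts were 8 higher and 0 lower, and of all 4336 genes tested 692 were called higher, against 1129 with every array. In the same fit 26.0% of all genes tested were called higher, 24.2% lower and 50.3% either way. The share of ATG genes called either way, 14 of 28, was thus near that of all genes, while 13 of the 14 calls were higher. The median log2 ratio of the 28 was 0.25, against −0.01 for all genes tested, and it was 0.44 without replicate 2. By array, that median was 0.50, 0.16 and 0.42 on replicates 1, 2 and 3. Above 0 on all 3 arrays stood 16 of the 28, where 36.5% of all genes did, and 1 stood below 0 on all 3, where 35.9% of all genes did. The members and lists were chosen with earlier results of these data known, so these shares are descriptions.

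**Figure D1:**
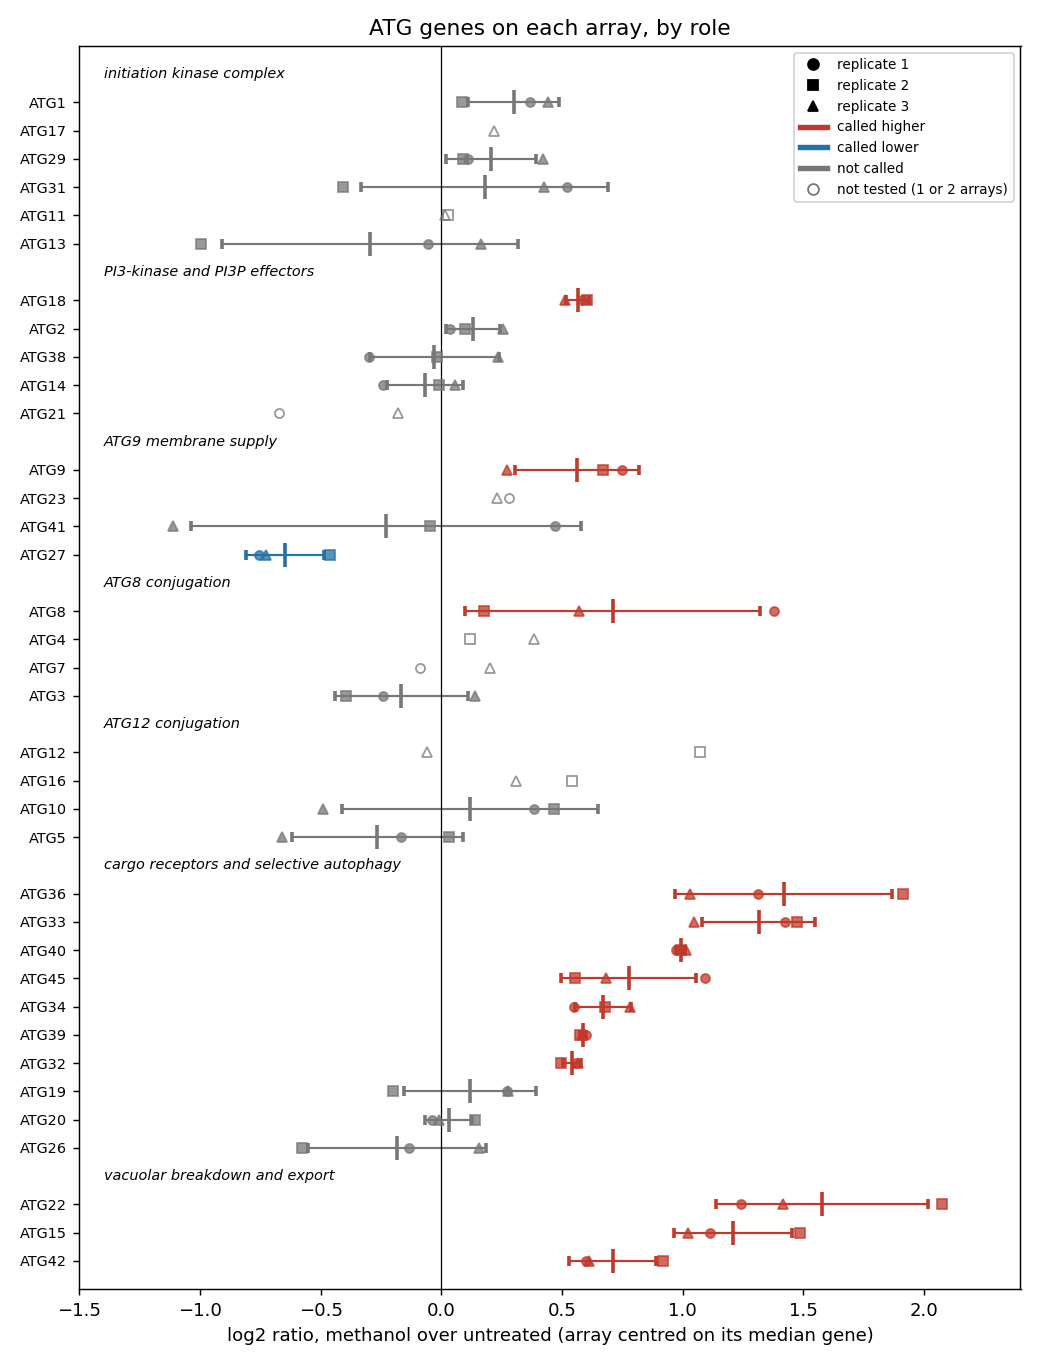
Log2 ratio of methanol over untreated (horizontal axis) for the 36 ATG genes, grouped by role; symbols are the 3 arrays, the vertical tick and bar are the mean ± SD (n = 3), red is called higher, blue called lower, grey not called, and open symbols are genes valued on 1 or 2 arrays. The receptor and vacuolar groups at the bottom hold 10 of the 13 genes called higher. All genes of these groups were tested, against 15 of the 23 others, and the groups were drawn up with earlier results known.

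**Figure D2:**
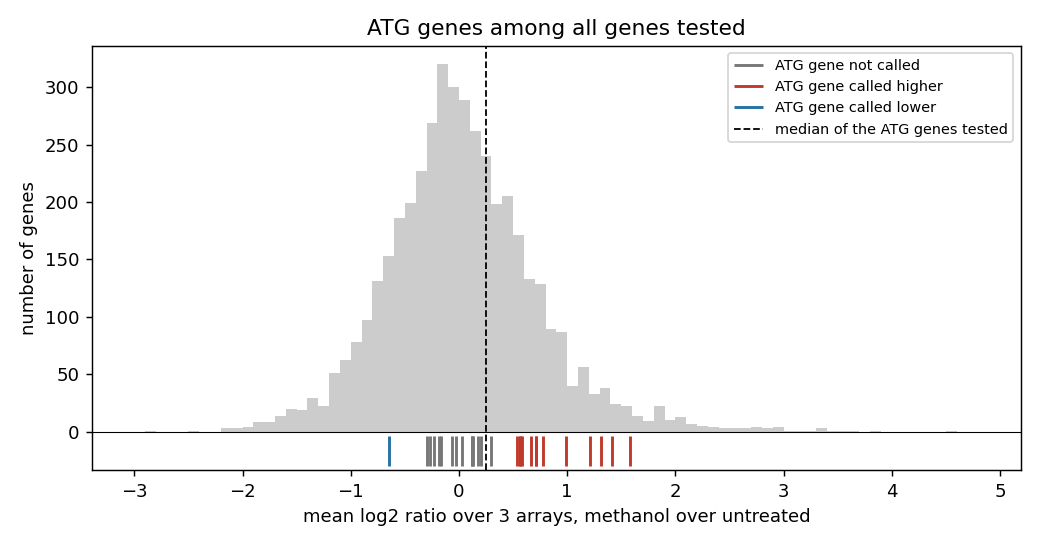
Histogram of the mean log2 ratio over 3 arrays (horizontal axis) for all 4336 genes tested, with the number of genes on the vertical axis; the strokes under it are the 28 ATG genes tested, coloured by call, and the dashed line is their median of 0.25. The ATG genes span −0.65 to 1.58, inside the range of all genes from −2.85 to 4.59.

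All 3 members of the vacuolar group were called higher, where 26.0% of all genes tested were. ATG22 (YCL038C), which encodes a vacuolar membrane protein that exports amino acids freed by breakdown, had log2 ratios of 1.24, 2.08 and 1.42 on replicates 1, 2 and 3. Every array put it above 2-fold, replicate 2 the furthest. Its mean of 1.58 ± 0.44 (SD, n = 3), or 2.98-fold, was the highest of the ATG genes, with a limma adjusted p of 0.000466, and 2.77% of all genes tested lay above it. It had a value in all 6 scans. ATG15 (YCR068W), the gene of the lipase that opens the membranes of autophagic bodies in the vacuole, stood at 1.11, 1.49 and 1.02. All 3 arrays lay above 2-fold, and the mean was 1.21 ± 0.25 (limma adjusted p = 0.000533), read from high-power scans only. ATG42 (YBR139W), a gene of a vacuolar carboxypeptidase, stood at 0.60, 0.92 and 0.61. Replicate 2 was the highest here too, and the mean was 0.71 ± 0.18 (limma adjusted p = 0.00376). Replicates 1 and 3 were valued at low power only, and replicate 2 in both scans.

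Of 10 genes for cargo receptors and other factors of selective autophagy, 7 were called higher and 0 lower. Of all genes tested, 26.0% were called higher and 24.2% lower. The median of the 10 was 0.63, and it was 0.58, 0.56 and 0.63 on replicates 1, 2 and 3. ATG36 (YJL185C), the receptor gene for peroxisomes, stood at 1.31, 1.91 and 1.03. Replicate 2 was again the highest, and the mean of 1.42 ± 0.45 was a 2.67-fold rise (limma adjusted p = 0.000774). ATG33 (YLR356W) encodes a protein of the mitochondrial outer membrane that serves mitophagy. Its log2 ratios were 1.43, 1.47 and 1.05, with a mean of 1.32 ± 0.23 (limma adjusted p = 0.000353), and every one of its 6 scans had a value. ATG32 (YIL146C), the mitophagy receptor gene itself, rose less, with 0.56, 0.50 and 0.57 and a mean of 0.54 ± 0.04 (limma adjusted p = 0.00801). The call of ATG32 was lost without replicate 1 (mean 0.53, limma adjusted p = 0.0667) and without replicate 3 (0.53, limma adjusted p = 0.0536).

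ATG40 (YOR152C), a receptor gene for the endoplasmic reticulum, had almost the same value on every array, 0.97, 0.99 and 1.01. Its mean was 0.99 ± 0.02 (limma adjusted p = 0.000626), and 0.484% of genes tested had an SD at or below its own. ATG39 (YLR312C), the receptor gene for the nuclear envelope and the endoplasmic reticulum around it, was as even at 0.60, 0.58 and 0.58. Its mean was 0.59 ± 0.01 (limma adjusted p = 0.00566), and the call was just lost without replicate 1, at a mean of 0.58 and a limma adjusted p of 0.0540. ATG45 (YIL024C), a receptor gene for glycogen, stood at 1.09, 0.55 and 0.68. Replicate 1 lay above the others, and the mean was 0.78 ± 0.28 (limma adjusted p = 0.00408).

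ATG34 and ATG19 are paralogs that lie side by side in the reference annotation, and both encode receptors for enzymes carried to the vacuole. Atg19 is the receptor of the Cvt pathway during growth, and Atg34 carries alpha-mannosidase during starvation. ATG34 (YOL083W) was called higher, with 0.55, 0.68 and 0.78 and a mean of 0.67 ± 0.12 (limma adjusted p = 0.00384). ATG19 (YOL082W) stood at 0.27, −0.20 and 0.28, with a mean of 0.12 ± 0.27 and a 95% confidence interval of −0.22 to 0.46 (limma adjusted p = 0.527). ATG34 minus ATG19 was 0.28, 0.88 and 0.50 on the 3 arrays, so ATG34 was the higher on each; this difference was not tested. How far probes of these paralogs share signal was not tested either. The sorting nexin gene ATG20 (−0.04, 0.14 and −0.01) and the sterol glucosyltransferase gene ATG26 (−0.13, −0.58 and 0.16) were not called. Their 95% confidence intervals ran from −0.26 to 0.32 for ATG20 and from −0.57 to 0.20 for ATG26.

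Outside the receptor and vacuolar groups, 15 of 23 ATG genes were tested, while all 13 genes within those groups were. Of the 15, 3 were called higher (20.0%, against 26.0% of all genes tested) and 1 lower, with a median of 0.12. By array their median was 0.11, 0.03 and 0.23. The 13 receptor and vacuolar genes had medians of 0.60, 0.68 and 0.68 on the same arrays, so the median of the 13 was the higher on each array. No test was made of this difference between groups of genes. The lists were drawn up with earlier results of these data known, and ATG45 was put into the receptor list last. The agreement of the arrays is thus a description and lends the grouping no support.

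Of the Atg1 kinase complex, 0 of 4 genes tested passed limma's adjusted p under 0.05, and 0 of them had an unadjusted p under 0.05. Of all genes tested, 50.3% were called. ATG1 (YGL180W), the kinase gene, stood at 0.37, 0.09 and 0.44, with a mean of 0.30 ± 0.19 and a 95% confidence interval of −0.01 to 0.61 (limma adjusted p = 0.0962). It passed the test without replicate 2, at a mean of 0.41 and a limma adjusted p of 0.0278. ATG13, whose product activates the kinase when TORC1 is off, stood at −0.05, −0.99 and 0.16. The low value came from replicate 2, which was valued at high power only. ATG29 (0.11, 0.09 and 0.42) and ATG31 (0.52, −0.41 and 0.43) encode partners of the scaffold Atg17. ATG31 passed the test without replicate 2, at a mean of 0.47 and a limma adjusted p of 0.0150. The scaffold gene ATG17 had a value on replicate 3 only, 0.22, and ATG11, the scaffold gene of selective autophagy, had 0.03 and 0.01 on replicates 2 and 3.

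Among genes of the lipid kinase complex and of proteins that read its product, phosphatidylinositol 3-phosphate, 1 of 4 was called. The share over all genes tested was 50.3%. ATG18 (YFR021W), which encodes such a binding protein and partner of Atg2, stood at 0.58, 0.60 and 0.51. These were among the least variable values of the ATG genes, with a mean of 0.57 ± 0.05 (limma adjusted p = 0.00668). Without replicate 1 the call of ATG18 was lost, at a mean of 0.56 and a limma adjusted p of 0.0604. Its partner ATG2, the gene of a lipid transfer protein, stood at 0.04, 0.10 and 0.26, with a 95% confidence interval of −0.16 to 0.42. The complex subunit genes ATG14 (−0.24, −0.01 and 0.06) and ATG38 (−0.30, −0.02 and 0.23) had values on both sides of 0. ATG21, a relative of ATG18, had −0.67 and −0.18 on replicates 1 and 3 and was not tested.

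The genes around Atg9, a membrane protein that scrambles lipids between leaflets, moved in opposite directions. ATG9 (YDL149W) was called higher, with 0.75, 0.67 and 0.27 and a mean of 0.56 ± 0.26 (limma adjusted p = 0.0135). Without replicate 1 its call was lost, at a mean of 0.47 and a limma adjusted p of 0.115. ATG27 (YJL178C), which encodes a membrane protein that helps Atg9 to leave the Golgi, stood at −0.76, −0.46 and −0.73. All 3 arrays were below 0, and the mean was −0.65 ± 0.16, or 0.638-fold (limma adjusted p = 0.00505). Its call was lost without replicate 1, at a mean of −0.59 and a limma adjusted p of 0.0573. ATG41, a gene for a small protein that binds Atg9, had the widest spread of the ATG genes tested, with 0.47, −0.05 and −1.11. Replicate 1 was above 0 and replicate 3 far below it, in both scans of each, so the mean of −0.23 ± 0.81 (limma adjusted p = 0.507) describes no single array. ATG23, which also serves Atg9 transport, had 0.28 and 0.23 on replicates 1 and 3.

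ATG8 (YBL078C) encodes the ubiquitin-like protein that is joined to phosphatidylethanolamine on the growing membrane. Its log2 ratios were 1.38, 0.18 and 0.57, all from high-power scans. All 3 lay above 0, but replicate 1 stood far above replicate 2, and 96.2% of genes tested had an SD at or below that of ATG8. The mean was 0.71 ± 0.61, with a 95% confidence interval of 0.20 to 1.22 (limma adjusted p = 0.0296). The call was lost without replicate 1, at a mean of 0.37 and a limma adjusted p of 0.184, and without replicate 3, at a mean of 0.78 and a limma adjusted p of 0.0769. ATG3, the gene of the enzyme that transfers Atg8 to the lipid, stood at −0.24, −0.39 and 0.14 and was not called. The protease gene ATG4, whose product trims Atg8, had 0.12 and 0.39 on replicates 2 and 3. ATG7, the gene of the activating enzyme that both conjugation systems share, had −0.09 and 0.20 on replicates 1 and 3. Neither was tested.

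The ATG12 conjugation genes gave 0 calls in 2 tests by limma, and 0 had an unadjusted p under 0.05. Among all genes tested 50.3% were called, and 2 genes are too few to set against that share. ATG10, the gene of the conjugating enzyme, stood at 0.39, 0.47 and −0.49, and ATG5, the gene of the target to which Atg12 is joined, at −0.17, 0.03 and −0.66. Replicate 3 was the lowest array for both. ATG12 itself had 1.07 and −0.06 on replicates 2 and 3, and ATG16, whose product holds the conjugate at the membrane, had 0.54 and 0.31 on the same arrays. Neither ATG12 nor ATG16 had a value on replicate 1, so neither was tested.

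ATG genes were valued in few scans, a rough sign of dim spots where no intensities were used. Of the 28 tested, 14 had a value in 3 scans only, against 24.6% of all genes tested. Of all genes valued in 3, 4, 5 and 6 scans, 29.5%, 27.8%, 26.6% and 22.6% were called higher. Their medians were 0.03, −0.003, 0.006 and −0.05. Among the ATG genes tested, 5 of 14 with 3 scans, 2 of 3 with 4 scans and 4 of 5 with 5 scans were called higher, with medians of 0.19, 0.54 and 0.67. Among the 6 with all scans 2 were higher, ATG22 and ATG33, and 1 lower, ATG27. The median of those 6 was −0.06, so the positive median of the 28 did not hold among them. The part of spot brightness in the results was not tested. In all, 21 of the 36 genes had values from high-power scans only. Where both scans of an array gave a value, 32 times over 15 genes, high minus low ran from −0.65 to 0.33 after each scan was centred on its median spot. The median size of that difference was 0.13, against 0.12 for all spots. The difference of −0.65 was that of ATG13 on replicate 3, which stood at −0.18 at high and 0.48 at low power.

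**Figure D3:**
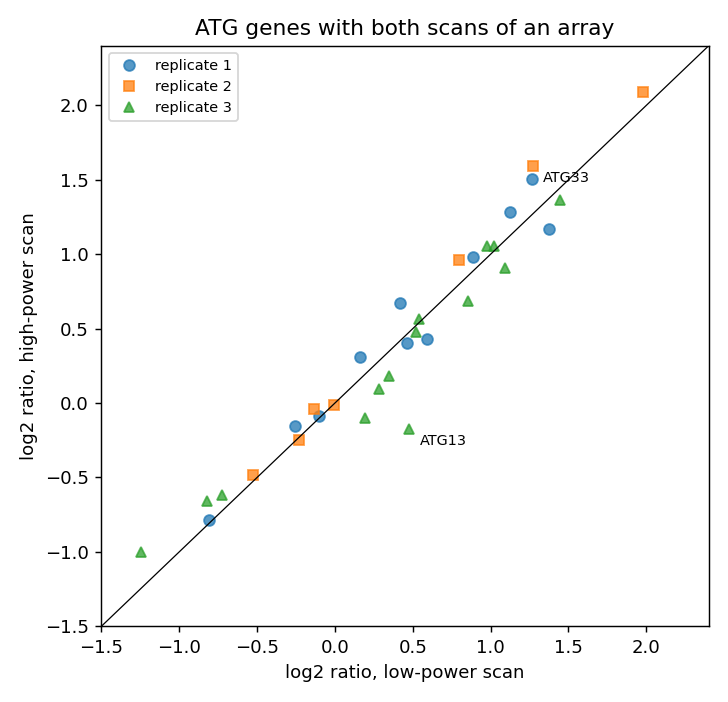
Log2 ratio in the high-power scan (vertical axis) against the low-power scan (horizontal axis) for ATG genes with both on an array, each scan centred on its median spot; symbols are the 3 arrays and the line marks equality. The point furthest from the line is ATG13 on replicate 3, at −0.18 against 0.48, while the ATG33 points that are named lie up to 0.33 above it.

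Of 65 other genes of autophagy and its control on the array, listed by role, 53 were tested, of which 10 were called higher (18.9%) and 8 lower, with a median of −0.03. Either way 34.0% were called, against 50.3% of all genes tested. Without replicate 1 these counts were 6 higher and 4 lower, and without replicate 3 they were 6 and 5. Of all 4336 genes tested, 692 and 869 were called higher without replicates 1 and 3, against 1129 with every array. Of the vacuolar cargo list, 3 of 5 were called higher, where 26.0% of all genes tested were. AMS1, the gene of alpha-mannosidase, a cargo of Atg19 and Atg34, stood at 1.42, 2.04 and 1.14. Its mean was 1.53 ± 0.46 (limma adjusted p = 0.000600). APE1, the gene of aminopeptidase I, the main Cvt cargo, stood at 1.09, 0.99 and 1.37, with a mean of 1.15 ± 0.20 (limma adjusted p = 0.000533). LAP3, an aminopeptidase gene, rose by 0.61 ± 0.19 (limma adjusted p = 0.00732), while APE4 (0.35 ± 0.13) and the ubiquitin-binding receptor gene CUE5 (0.16 ± 0.19) did not pass the test.

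Of 11 genes for delivery and fusion of vesicles, 1 was called higher and 4 lower, or 45.5% either way against 50.3% of all genes tested. ARL1, a GTPase gene of the Golgi, fell by 1.05 ± 0.15 (limma adjusted p = 0.000651), with −1.21, −0.91 and −1.02 on the 3 arrays. SEC18, the gene of the ATPase that recycles SNARE proteins, fell by 0.64 ± 0.11 (limma adjusted p = 0.00446). TRS85, the gene of the TRAPP subunit that serves autophagy, stood at −0.88 ± 0.68, with −1.02, −1.48 and −0.15 on the 3 arrays (limma adjusted p = 0.0168). Its call was lost without replicate 1, at a limma adjusted p of 0.115. VAM7, a vacuolar SNARE gene, was the 1 called higher, at 0.42 ± 0.09 (limma adjusted p = 0.0238), and lost its call without replicate 1 or replicate 3, at 0.128 and 0.132. CCZ1, a gene of the factor that activates the vacuolar GTPase Ypt7, was the fourth called lower, at −0.40 ± 0.11 (limma adjusted p = 0.0295). The call of CCZ1 was lost without replicate 1 or replicate 3, at a limma adjusted p of 0.160 and 0.144. MON1, on the same list, stood above 0 at 0.40, 0.09 and 0.91 and was not called (limma adjusted p = 0.0549).

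Among 10 genes for the lipid kinase and sorting, VPS1, a dynamin-like GTPase gene, fell by 1.03 ± 0.27 (limma adjusted p = 0.00115). SNX41, a sorting nexin gene, stood at 0.38 ± 0.12 (limma adjusted p = 0.0375), a call lost without replicate 1 or replicate 3, at 0.207 and 0.143. VPS34, the gene of the lipid kinase itself, stood at 0.37, −1.10 and 0.35 and was not called. VPS30, also known as ATG6, had a value of 1.02 on replicate 3 only. SNX4, also known as ATG24 and so not counted in the receptor group, stood at −0.20, −0.52 and 0.04 and was not called.

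Of 17 genes of TORC1 and nutrient signalling, 2 were called higher and 1 lower, or 17.6% either way against 50.3% of all genes tested. BCY1, the gene of the inhibitory subunit of protein kinase A, stood at 0.72, 0.37 and 0.76, with a mean of 0.62 ± 0.21 (limma adjusted p = 0.00763). YAK1, a kinase gene that protein kinase A opposes, stood at 0.39 ± 0.23 (limma adjusted p = 0.0488). SNF4, which encodes the activating subunit of the glucose-sensing kinase Snf1, stood at −0.67 ± 0.42 (limma adjusted p = 0.0147). Without replicate 1 the limma adjusted p was 0.0739 for BCY1, 0.282 for YAK1 and 0.0768 for SNF4, and without replicate 3 it was 0.0595, 0.163 and 0.0984, so these 3 calls needed both of those arrays.

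Of 10 transcriptional regulators, 3 were called higher and 2 lower, where 26.0% and 24.2% of all genes tested were. The shares called on this list were thus near those of all genes. GAT1, a GATA factor gene of the nitrogen response, stood at 0.91, 0.94 and 0.70, with a mean of 0.85 ± 0.13 (limma adjusted p = 0.00148). GIS1, whose product shares its DNA motif with the ATG gene repressor Rph1, rose by 0.72 ± 0.26 (limma adjusted p = 0.00505). MSN4, a gene of the general stress factors, rose by 0.69 ± 0.19 (limma adjusted p = 0.00446). MSN2, on the same list, stood at −0.17, −0.04 and −0.63 and was not called (limma adjusted p = 0.161). GCN4, the activator gene of amino acid synthesis, whose protein level is set mostly by translation, fell by 0.65 ± 0.14 (limma adjusted p = 0.00453), a call lost without replicate 1, at 0.0556. RPD3, the histone deacetylase gene of the Ume6 complex that represses ATG8, was also called lower (−0.54 ± 0.27, limma adjusted p = 0.0175), a call lost without replicate 1 or replicate 3, at 0.0778 and 0.130. UME6 itself stood at −0.49, 0.06 and −0.40 and SIN3, on the same list, at 0.19, 0.05 and −0.15. Neither was called, and RPH1 had 0.05 and 0.01 on replicates 1 and 3. Any link of these genes to the ATG8 value was not tested.

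**Figure D4:**
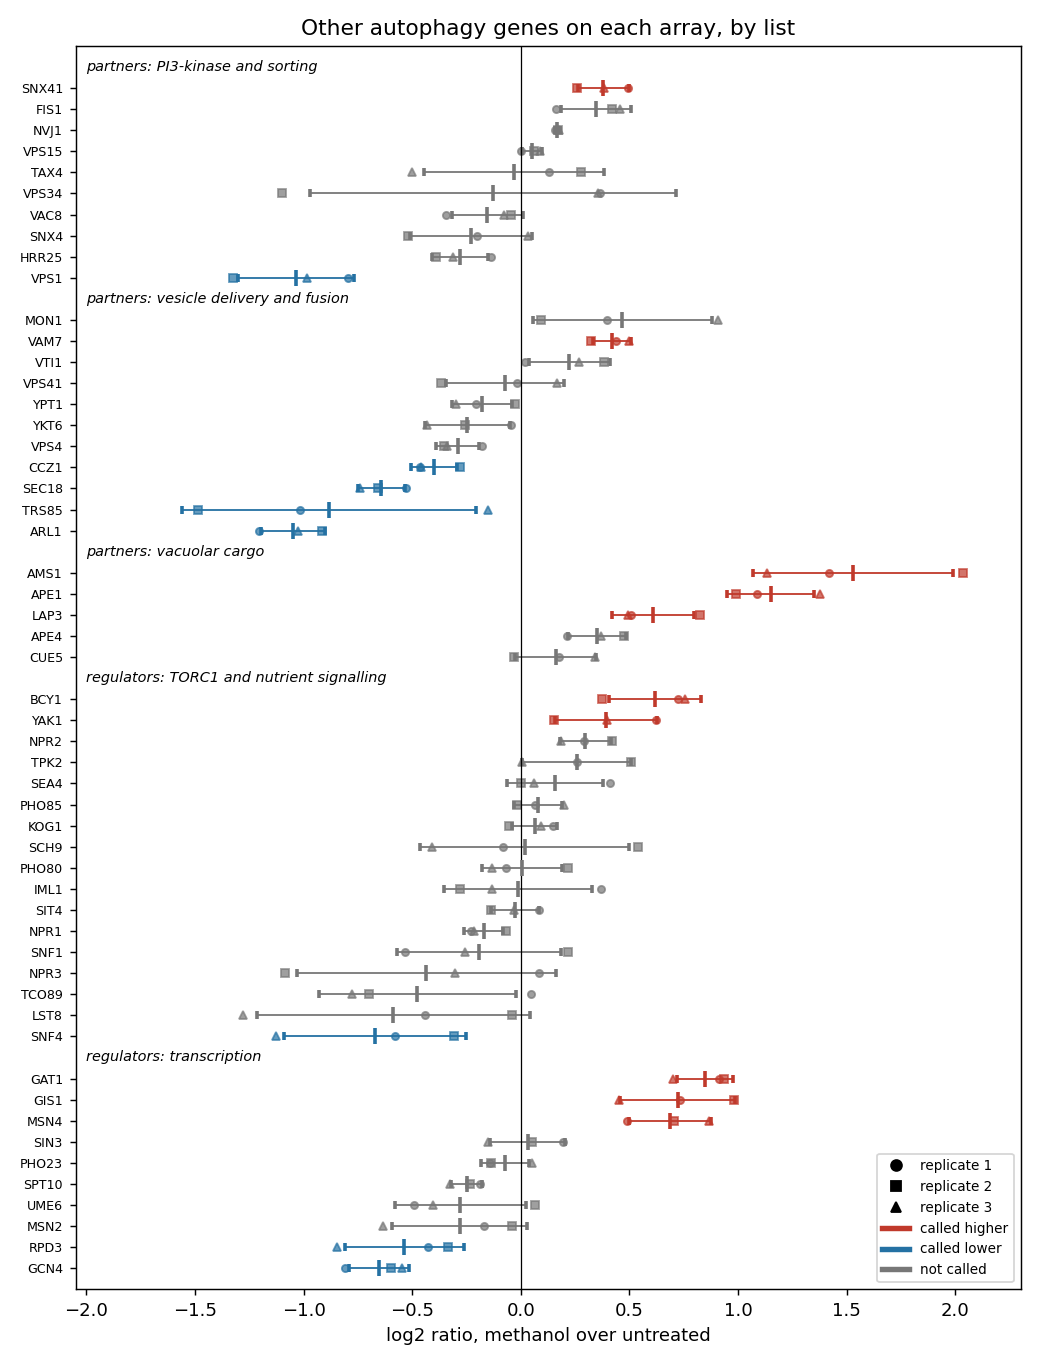
Log2 ratio of methanol over untreated (horizontal axis) for the 53 other autophagy genes tested, by list; symbols are the 3 arrays, the tick and bar are the mean ± SD (n = 3), red is called higher, blue called lower and grey not called. AMS1 at 1.53 and APE1 at 1.15 stand highest, and ARL1 at −1.05 and VPS1 at −1.03 lowest.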

How the data were processed

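The deposited values are log2 ratios (base assumed), 1 column per scan of a 2-colour array. Per the labels' descriptions, the authors ran a LOWESS normalization on spots with flag 0 and merged the scans in GeneSpring; the merged value is not used here. Image analysis and background correction are not given in the sources used here. Gene names came from the platform annotation, and the 5446 spots with 1 gene all matched the R64 gene table; 1466 of 6912 spots had none. No spot intensities or sequences were used.

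Scans were averaged per array and spots per gene (identical copies once), and the median gene of each array, which stood at −0.05, −0.05 and −0.02, was set to 0. On replicates 1, 2 and 3, 31, 32 and 36 ATG genes had a value. Genes valued on 3 arrays were tested against 0 with limma 3.58.1 in R 4.3.3, adjusted over all 4336 genes. The fit was tried on simulated data with independent normal noise and far fewer changed genes than were called here. That simulation held no dye effect, so it cannot vouch for the calls in these data. The number of arrays limits the precision.

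All ATG genes are named. Of the other lists, up to 4 called genes each with the largest change are named. Exceptions were chosen after their values were seen (APE4, CUE5, CCZ1, MON1, VPS34, VPS30, SNX4, MSN2, RPD3, UME6, SIN3, RPH1). The members and lists were chosen with earlier results of these data known, and ATG45 was put into its list last. Listed names with no spot in the annotation used were not analysed under those names. Alternatives were the scans alone, centring, array and scan minimums, array weights, robust moderation and leaving out each replicate.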

Additional observations from a re-analysis of the deposited data

How the results depend on the processing

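The 13 calls higher and the 1 call lower among ATG genes were the same in number without centring, with each scan centred first, with genes valued on 2 arrays included and with robust moderation; array weights gave 14 and 1, and high-power scans alone 12 and 1. Low-power scans alone tested 7 ATG genes and called 3 higher, and called 6 other autophagy genes higher and 4 lower of 21 tested. Of all genes, 431 of 1710 were called higher in those scans. With values required in all 6 scans, 6 ATG genes remained to test, 2 were higher and the median turned to −0.056, while 5 of 21 other genes were lower. Under that requirement 427 of all 1595 genes were called higher. Both settings test fewer genes. Leaving out 1 replicate gave 8 to 15 ATG genes higher, 0 to 1 lower and a median of 0.26 to 0.44, and 6 to 12 of the other genes higher and 4 to 11 lower. The lowest counts came without replicate 1, where 692 of all genes were higher against 1129, and the ATG median was highest without replicate 2. Of the 13 ATG genes called higher, 8 kept the call whichever replicate was left out. Of the other named genes, YAK1 lost its call without centring (limma adjusted p = 0.0681), with each scan centred first (0.0626) and with genes valued on 2 arrays included (0.0599), and SNX41 without centring (0.0545). ATG1 passed the test with array weights (0.0299). The causes were not tested. Each ratio sets the methanol culture against the untreated culture of the same array, so the test against 0 was itself paired by array. The series has 1 group.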

Other observations

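Next to 11 of the 13 ATG genes called higher, 18 neighbours in the reference annotation were tested, of which 4 were called higher and 4 lower, where 26.0% and 24.2% of all genes tested were, with a median log2 ratio of −0.03. ATG18 lay between CSS2 (0.48 ± 0.11) and ROG3 (0.80 ± 0.19, an arrestin-like gene), both called higher. ATG15 lay beside CPR4 (0.72 ± 0.19), and ATG34 beside PHM7 (2.95 ± 0.30). In contrast, ATG22 lay beside SRO9 (−1.09 ± 0.16), ATG8 beside the isoleucyl-tRNA synthetase gene ILS1 (−1.06 ± 0.08) and ATG9 beside RPC53 (−1.45 ± 0.85), all called lower. These neighbours were named after their values were seen. ATG29 overlaps SET6, which was called higher at 0.72 ± 0.17 while ATG29 stood at 0.21 ± 0.19; how far the spots share signal was not tested.

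In 11 of the 28 ATG genes tested, replicate 2 was the lowest array, replicate 1 in 9 and replicate 3 in 8. Among the 28, replicate 2 held the highest value of ATG22, ATG36, ATG33, ATG15 and ATG42, and also of ATG5, ATG10, ATG18, ATG20 and ATG27.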
